A study of Mus musculus with 5 samples.

Results

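The genes followed here make, degrade or respond to cyclic AMP, and are 10 of the 19087 genes named on the array used to profile the mouse nucleus accumbens. They are the adenylyl cyclase Adcy5, the phosphodiesterases Pde10a, Pde1b, Pde2a and Pde4b, the protein kinase A catalytic subunits Prkaca and Prkacb, and its regulatory subunits Prkar1a, Prkar1b and Prkar2b. Their spots were those paired with exactly 1 gene symbol in the platform annotation, 19 of 32042 such spots, and all 19 had a value on each of the 5 arrays. The animals were male C57BL6 mice taken through conditioned place preference, in which a drug is paired with a compartment and the time later spent there is scored. Cocaine-treated mice had 15 mg/kg on days 2, 3 and 4 and came from the animals with a low preference score, and saline-treated mice had saline on the same days. Each array set RNA from the accumbens of 1 mouse given cocaine against that of 1 given saline, with cocaine RNA in the dye Cy5 on 3 arrays and in Cy3 on 2. No age is labelled. The design text counts 5 nuclei for each treatment, but the cocaine RNAs of cocaine-in-Cy5 replicates 1 and 2 have names that differ by a suffix alone, so whether they come from separate mice was not settled, and the p-values measure the spread between these arrays.

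Cyclic AMP is made from ATP by adenylyl cyclases, which G-protein-coupled receptors switch on or off, and is broken down by phosphodiesterases. It releases the catalytic subunits of protein kinase A from a complex with a dimer of regulatory subunits, and the freed kinase phosphorylates channels, the phosphatase inhibitor DARPP-32 (Ppp1r1b) and the transcription factor CREB. In striatal projection neurons, D1 dopamine receptors stimulate this pathway and D2 receptors inhibit it. CREB binds the cyclic AMP response element, whose full palindrome is TGACGTCA and whose core is TGACG.

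The promoters of the 10 genes were read for that element, since the last step of the pathway acts on promoters. RefSeq windows (GRCm38.p6) of 300 bases, from 250 before to 50 after an annotated start, were given for 10 of 10 genes, 33 windows in all. On either strand, and with the palindrome counted too, the core lay in 8 of the 33 (24.2%), for 6 genes, against 20.8% of all 32851 windows. The palindrome lay in 2 overlapping windows of 1 gene, Prkar1a, against 1.79% of all windows. Both windows below are on the plus strand and are shown because they hold the palindrome (Prkar1a, chr11:109650699-109650998, where it begins 49 bases before the start) or the core at 2 places on the opposite strand (Prkaca, chr8:83972728-83973027). Capitals mark TGACGTCA, TGACG or its complement CGTCA. A match describes the letters and not a bound site.
Prkar1a: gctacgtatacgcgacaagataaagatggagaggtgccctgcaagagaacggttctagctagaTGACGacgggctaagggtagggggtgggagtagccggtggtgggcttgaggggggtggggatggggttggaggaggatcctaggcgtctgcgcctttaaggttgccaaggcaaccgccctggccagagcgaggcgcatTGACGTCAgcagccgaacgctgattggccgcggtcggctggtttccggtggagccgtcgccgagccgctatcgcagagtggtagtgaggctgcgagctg
Prkaca: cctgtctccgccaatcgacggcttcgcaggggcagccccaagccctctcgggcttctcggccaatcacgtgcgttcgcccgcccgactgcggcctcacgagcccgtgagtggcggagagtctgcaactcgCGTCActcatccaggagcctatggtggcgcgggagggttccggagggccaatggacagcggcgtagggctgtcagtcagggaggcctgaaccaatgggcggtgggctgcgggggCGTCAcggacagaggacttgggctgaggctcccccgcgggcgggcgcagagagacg

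Every value below is a log2 ratio between the channels of an array, and which treatment is its numerator is not stated. The design text words the comparison as cocaine against saline, and the values did not settle it, so a positive ratio is called the numerator side and a negative ratio the denominator side. Dim spots, those with a recovered log2 brightness under 6.6, had medians of -0.65, -0.61 and -0.56 on cocaine-in-Cy5 replicates 1, 2 and 3 and of 0.58 and 0.64 on cocaine-in-Cy3 replicates 1 and 2. This offset switched sign with the dyes, as it would if the swapped arrays had already been turned, so the 5 arrays were taken to share 1 direction. That reading is a likely one. Values with the cocaine-in-Cy3 arrays turned round, called the other reading, stand beside each member's results, and every side named below otherwise holds for the likely reading alone. The median of gene spots above background was -1.57 on cocaine-in-Cy5 replicate 1 and lay between -0.69 and 0.16 on the other 4 arrays, so replicate 1 stood apart. Projection neuron markers were present, with 7 of 8 measured above background, Drd1 and Drd2 included, as were 2 of 6 for astrocytes, 2 of 5 for oligodendrocytes, 0 of 5 for microglia, 1 of 5 for endothelium, 2 of 3 for red blood cells, 0 of 4 for choroid plexus and 1 of 4 for cortical glutamatergic neurons. In such bulk tissue, fewer cells of a type and less RNA per cell cannot be told apart.

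None of the cyclic AMP genes passed the test of cocaine against saline in the likely reading. With limma, 0 of 19 member spots had an adjusted p under 0.05, against 0.0% of all features (0 of 43790). At an unadjusted p under 0.05 there were 0 of 19, against 2.28% of all features (998 of 43790). The smallest adjusted p over all features was 0.731. Each gene was given the mean of the ratios of all its spots, those not above background included. All 10 genes lay on the denominator side, with a median log2 ratio of -0.35, but so did 68.8% of 19087 genes, whose median was -0.04. Under the other reading 7 of the 10 lay there (Pde10a, Prkaca and Prkar2b did not), with a median of -0.25, beside 96.0% of all genes and a median of -0.55. A spot above background existed for 9 of the 10 genes but for only 3415 of the 19087. These medians thus differ in their mix of bright and dim spots, and spots above background are compared below. Much of the members' -0.35 came from 1 array: without cocaine-in-Cy5 replicate 1 it was -0.10. In the plot of deposited ratios by spot, that array is the lowest at each of the 9 spots above background.

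**Figure D1:**
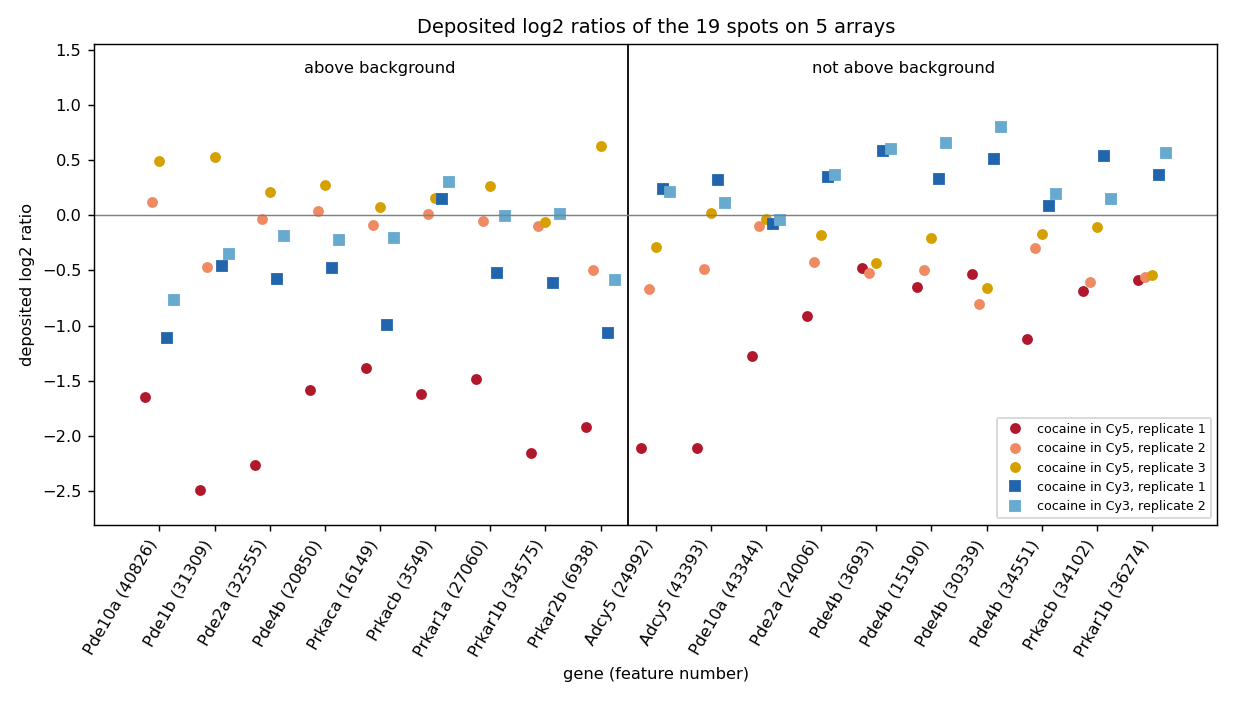
Deposited log2 ratios (vertical axis) of the 19 spots of the 10 genes (horizontal axis, gene and feature number), with 1 point for each of the 5 arrays: circles have cocaine RNA in Cy5, squares in Cy3. Left of the line are the 9 spots above background, where cocaine-in-Cy5 replicate 1 lies between -1.38 and -2.49, and right of it the 10 others, where most spots have circles below 0 and squares above 0.

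The spots differed in whether they carried signal over background. Spots whose log2 brightness, worked out from the ratios themselves, exceeded 7.5 count as above background, which 3919 gene spots of 3415 genes passed. Of the 19 member spots 9 passed, 1 for each gene but Adcy5, so the values of those 9 are not values of all 19. The dimmest inside was Prkacb at 7.73 and the brightest outside was Adcy5 at 7.43, each with an uncertainty (posterior SD) of 0.46 and 0.41, so this border does not separate them. The 9 spots had deposited ratios from -0.71 to -0.13 with a median of -0.53, near the median of -0.48 over all 3919 gene spots above background. The 10 other spots had ratios from -0.40 to 0.06 with a median of -0.07.

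The ratios followed brightness along a curve that differed from array to array. This trend was removed from each array by a loess curve over the 3919 spots, so that the values called trend-removed below are relative to gene spots of like brightness. The median standard error of the 9 spots was 0.36 before and 0.10 after, and the number of them with a 95% interval inside 2-fold was 1 before and 9 after. Over all 3919 spots 99.6% were inside 2-fold after the removal. These are intervals of signal ratios, and whether background was still in the signals was not settled. If it was, ratios of spots little above background would understate changes in RNA, which the loess curve does not undo. Again 0 of 9 member spots passed (limma, adjusted p under 0.05), against 0.0% of 3919, with a smallest adjusted p of 0.667 over all of them. At an unadjusted p under 0.05 there was 1 of 9, that of Prkacb, against 6.84% of 3919 spots. The median over the 9 genes was 0.03, with 7 on the numerator side, beside a median of 0.00 over 3415 genes. Of the 9, 4 lay there under the other reading.

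**Figure D2:**
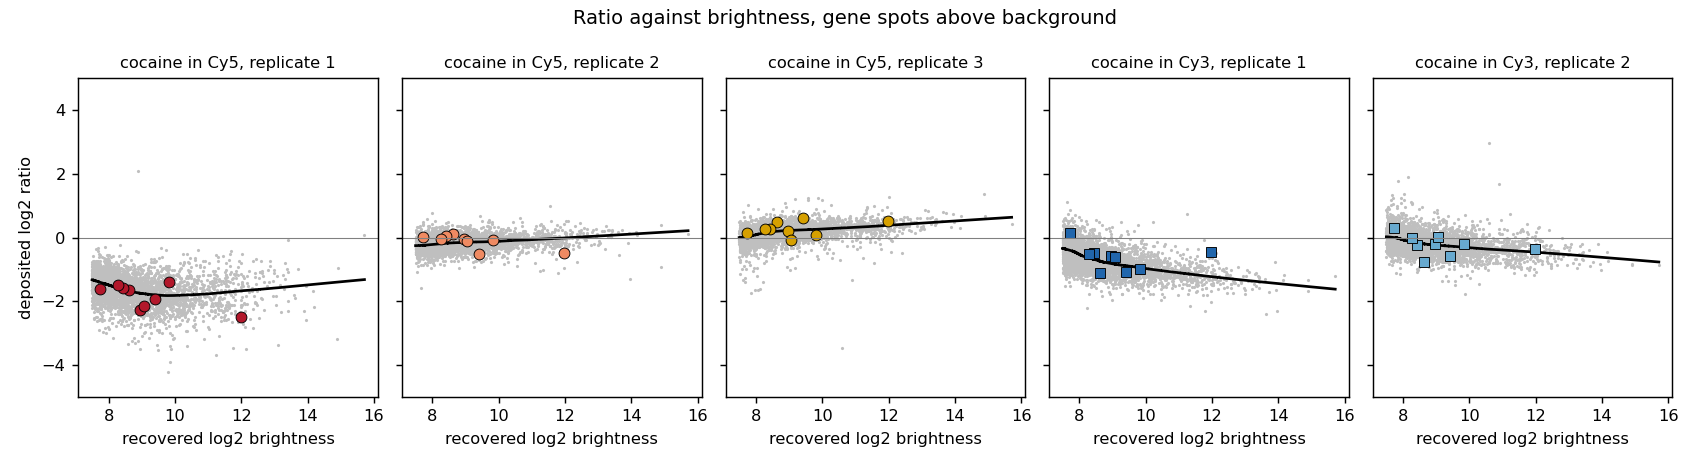
Deposited log2 ratio (vertical axis) against recovered log2 brightness (horizontal axis) of 3919 gene spots above background, 1 panel per array. Grey points are all spots, black lines the loess curves and coloured points the 9 member spots. The curve of cocaine-in-Cy5 replicate 1 lies below 0 throughout, and those of the cocaine-in-Cy3 arrays slope down.

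Adcy5 is the main adenylyl cyclase of striatal projection neurons, where D1 receptors drive it and D2 receptors restrain it. Neither of its 2 spots was above background. The spot at feature 24992 had deposited ratios of -2.11, -0.67 and -0.29 on cocaine-in-Cy5 replicates 1, 2 and 3 and of 0.24 and 0.21 on cocaine-in-Cy3 replicates 1 and 2. The spot at feature 43393 had -2.11, -0.49 and 0.02, and then 0.32 and 0.11, on the same arrays. These 2 spots gave like values, with a median gap of 0.10 and a largest gap of 0.31 between them. They fell outside the range of dim spots (over 2.5 median absolute deviations from their median) on 2 and 3 of the 5 arrays, so they were not like plain background everywhere. Their mean log2 ratios were -0.40 ± 0.30 (SE, adjusted p 0.731) and -0.32 ± 0.34 (adjusted p 0.763). Without cocaine-in-Cy5 replicate 1 they were -0.13 and -0.01, and under the other reading -0.62 and -0.54 (adjusted p 0.116 and 0.219). With the brightness threshold lowered to 7, which let both in, the trend-removed ratios were -0.07 ± 0.11 and -0.03 ± 0.15, with intervals from -0.32 to 0.18 and from -0.39 to 0.33.

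The phosphodiesterases hold 2 enzymes for which the striatum is known, Pde10a and Pde1b. Pde10a, which hydrolyses both cyclic AMP and cyclic GMP in projection neurons, had deposited ratios of -1.65, 0.12 and 0.49 on cocaine-in-Cy5 replicates 1, 2 and 3 and of -1.11 and -0.77 on cocaine-in-Cy3 replicates 1 and 2 (feature 40826). Their mean was -0.64 ± 0.36 (SE, adjusted p 0.731), but -0.32 without cocaine-in-Cy5 replicate 1 and 0.30 under the other reading. Without the trend, cocaine-in-Cy5 arrays gave 0.03, 0.28 and 0.29 and cocaine-in-Cy3 arrays -0.37 and -0.57, with a mean of -0.14 ± 0.08 (adjusted p 0.684). The dye orientations did not overlap, so the mean sums values of opposite sign. Under the other reading the trend-removed ratio of Pde10a would be 0.34 ± 0.08 (adjusted p 0.11), the highest of the 9. Its other spot (feature 43344, brightness 6.52) was not above background, yet lay outside the range of dim spots on 5 of 5 arrays, with -1.27 on cocaine-in-Cy5 replicate 1 and -0.10 to -0.03 on the other 4.

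Pde1b, a phosphodiesterase that calcium and calmodulin activate, is represented by 1 spot (feature 31309). The deposited ratios were -2.49, -0.47 and 0.53 on cocaine-in-Cy5 replicates 1, 2 and 3 and -0.46 and -0.35 on cocaine-in-Cy3 replicates 1 and 2, for a mean of -0.61 ± 0.47 (adjusted p 0.731), which was -0.19 without cocaine-in-Cy5 replicate 1 and -0.20 under the other reading. Trend-removed ratios were -0.82, -0.46 and 0.14, and 0.77 and 0.11, in that order. In the likely reading they spanned 1.58 on the log2 scale, the widest range of the 9 spots. The mean of the fit, midway between -0.38 for cocaine-in-Cy5 and 0.44 for cocaine-in-Cy3 arrays, was 0.03 ± 0.16 (95% interval -0.34 to 0.40, adjusted p 0.964). Under the other reading it would be -0.41 ± 0.16 (adjusted p 0.204), the mean farthest from 0 of the 9.

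Pde2a, which cyclic GMP stimulates, and Pde4b, a phosphodiesterase specific for cyclic AMP and a target of rolipram, each had 1 spot above background. For Pde2a (feature 32555) the deposited ratios were -2.26, -0.03 and 0.21 on cocaine-in-Cy5 replicates 1, 2 and 3 and -0.58 and -0.19 on cocaine-in-Cy3 replicates 1 and 2, with a mean of -0.54 ± 0.42 (adjusted p 0.731), and -0.15 both without cocaine-in-Cy5 replicate 1 and under the other reading. Trend-removed values lay between -0.51 and 0.23 and had a mean of 0.00 ± 0.11 (interval -0.26 to 0.26, adjusted p 0.999), or -0.13 ± 0.11 under the other reading. The only array far from 0 was cocaine-in-Cy5 replicate 1, at -0.51. For Pde4b (feature 20850) the deposited ratios were -1.58, 0.04 and 0.27, and -0.48 and -0.22, with a mean of -0.39 ± 0.31 (adjusted p 0.731), which was -0.10 without cocaine-in-Cy5 replicate 1 and -0.04 under the other reading. Without the trend they were 0.05, 0.22 and 0.09, and 0.20 and -0.05, with a mean of 0.10 ± 0.08 (adjusted p 0.726), on the numerator side of 4 of 5 arrays, or 0.02 ± 0.08 under the other reading.

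Pde4b shows how far spots of 1 gene can differ. Of its 5 spots, those at features 3693 and 30339 lay within the range of dim spots on all 5 arrays, that at 15190 on 4 of 5, and that at 34551 on 1 of 5. The spot above background differed from the 3 dimmest by a median of 0.81 to 0.99 on the log2 scale, while those 3 differed from each other by a median of 0.16 to 0.20. A mean over all spots of Pde4b would thus rest mostly on background. The dimmer spots of Prkar1b (feature 36274, inside the dim range on all 5 arrays), Prkacb (feature 34102, outside it on 2) and Pde2a (feature 24006, outside it on 1) gave deposited means from -0.07 to -0.05, and from -0.51 to -0.41 under the other reading, where the dye offset of dim spots no longer cancels.

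**Figure D3:**
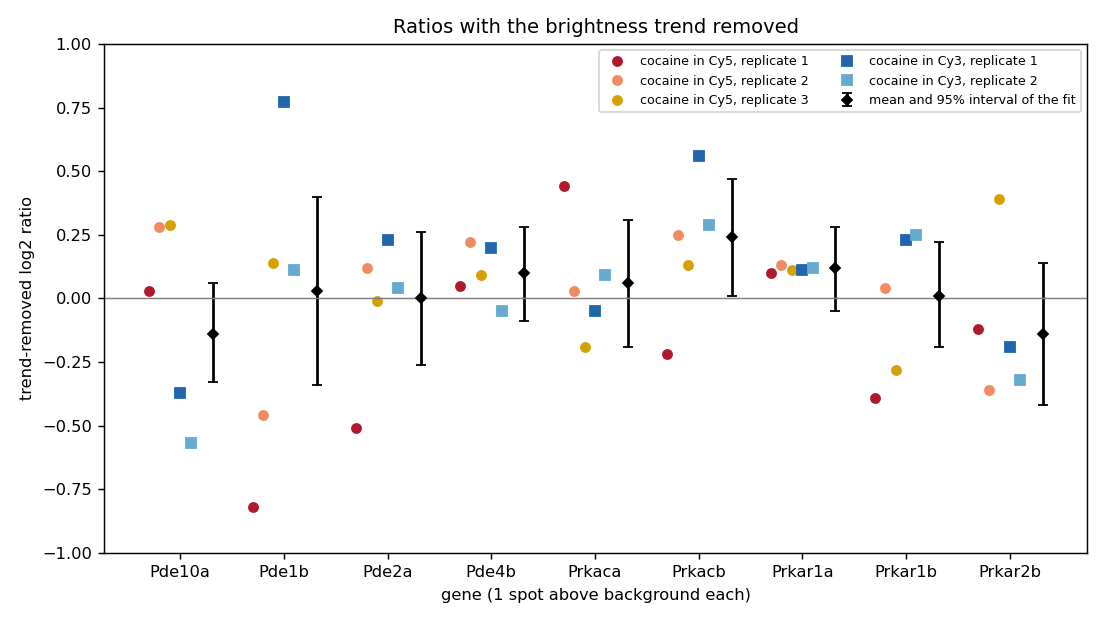
Trend-removed log2 ratios (vertical axis) of the 9 genes with a spot above background (horizontal axis), 1 point per array (circles, cocaine in Cy5; squares, cocaine in Cy3), with the mean of the fit and its 95% interval in black. The 5 points of Prkar1a lie between 0.10 and 0.13, while those of Pde1b reach from -0.82 to 0.77.

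Prkaca and Prkacb encode the alpha and beta catalytic subunits, which carry the kinase activity. Deposited ratios of Prkaca (feature 16149) were -1.38, -0.09 and 0.07 on cocaine-in-Cy5 replicates 1, 2 and 3 and -0.99 and -0.21 on cocaine-in-Cy3 replicates 1 and 2, with a mean of -0.53 ± 0.27 (adjusted p 0.731), which was -0.30 without cocaine-in-Cy5 replicate 1 and 0.07 under the other reading. Its trend-removed ratios were 0.44, 0.03 and -0.19, and -0.05 and 0.09, around a mean of 0.06 ± 0.11 (adjusted p 0.884), or 0.04 ± 0.11 under the other reading. The array with the lowest deposited ratio was thus the one with the highest trend-removed ratio. Prkacb (feature 3549) had deposited ratios of -1.62, 0.01 and 0.16, and 0.15 and 0.30, with a mean of -0.13 ± 0.30 (adjusted p 0.895), on the numerator side of 4 of 5 arrays. Without cocaine-in-Cy5 replicate 1 that mean was 0.15, and under the other reading -0.36. Trend-removed, it stood at -0.22, 0.25 and 0.13, and at 0.56 and 0.29. The mean of 0.24 ± 0.10, a ratio of 1.18 with an interval from 1.01 to 1.38, had an unadjusted p of 0.0435 and an adjusted p of 0.667 (limma). It was the largest of the 9 in this reading alone: under the other reading Prkacb stood at -0.19 ± 0.10, with an unadjusted p of 0.0977 and an adjusted p of 0.309 (limma). The exact test that changes the signs of whole arrays takes the plain mean of the 5 values, without a dye term, which was 0.20 for Prkacb. This exact test gave Prkacb a 2-sided p of 0.188, where 0.0625 is the smallest p that 5 arrays allow.

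The regulatory subunits hold the kinase inactive until cyclic AMP binds. Prkar1a, the widely expressed type I alpha subunit, had deposited ratios of -1.48, -0.05 and 0.26 on cocaine-in-Cy5 replicates 1, 2 and 3 and of -0.52 and -0.01 on cocaine-in-Cy3 replicates 1 and 2 (feature 27060), a mean of -0.35 ± 0.30 (adjusted p 0.732), which was -0.08 both without cocaine-in-Cy5 replicate 1 and under the other reading. Without the trend its 5 values were 0.10, 0.13 and 0.11, and 0.11 and 0.12. Their SD over arrays was 0.013, and all 5 lay on the numerator side. Its mean was 0.12 ± 0.07, a ratio of 1.08 with an interval from 0.966 to 1.21, and the adjusted p was 0.684. The standard error exceeds the SD because limma draws each spot's variance towards that of the other spots. In the likely reading, positive ratios on all 5 arrays were found for 1 of the 9 spots and negative ones on all 5 for 0, against 2.19% and 2.81% of the 3919 spots. The exact sign-change p of Prkar1a was 0.0625 (2-sided), the smallest possible. Any spot with all 5 values on 1 side reaches it, so it adds nothing to that count. All of this holds for that reading alone: with the cocaine-in-Cy3 arrays turned round their values were -0.11 and -0.12, and the mean of Prkar1a was -0.0008 (adjusted p 0.995). Of the 9 spots, 1 (Pde10a) was then above 0 on all 5 arrays and 0 were below 0 on all 5, against 9.54% and 9.9% of the 3919.

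Prkar1b, the type I beta subunit of neurons, and Prkar2b, the type II beta subunit that is abundant in brain, had 1 spot above background each. For Prkar1b (feature 34575) the deposited ratios were -2.15, -0.10 and -0.06 on cocaine-in-Cy5 replicates 1, 2 and 3 and -0.61 and 0.01 on cocaine-in-Cy3 replicates 1 and 2, with a mean of -0.53 ± 0.38 (adjusted p 0.731), which was -0.19 without cocaine-in-Cy5 replicate 1 and -0.24 under the other reading. Trend-removed values were -0.39, 0.04 and -0.28, and 0.23 and 0.25, so the dye orientations did not overlap, and the mean was 0.01 ± 0.09 (adjusted p 0.968). This mean would be -0.23 ± 0.09 under the other reading (adjusted p 0.208). Prkar2b (feature 6938) had deposited ratios of -1.92, -0.50 and 0.63, and of -1.07 and -0.59, for a mean of -0.71 ± 0.40 (adjusted p 0.731), which was -0.38 without cocaine-in-Cy5 replicate 1. It was the lowest of the 9 spots in this reading, but 0.12 under the other, where Prkacb was the lowest. Without the trend it stood at -0.12, -0.36 and 0.39, and at -0.19 and -0.32, with a mean of -0.14 ± 0.12 (interval -0.42 to 0.14, adjusted p 0.726), or 0.11 ± 0.12 under the other reading. It lay on the denominator side of 4 of 5 arrays, the exception being cocaine-in-Cy5 replicate 3.

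**Figure D4:**
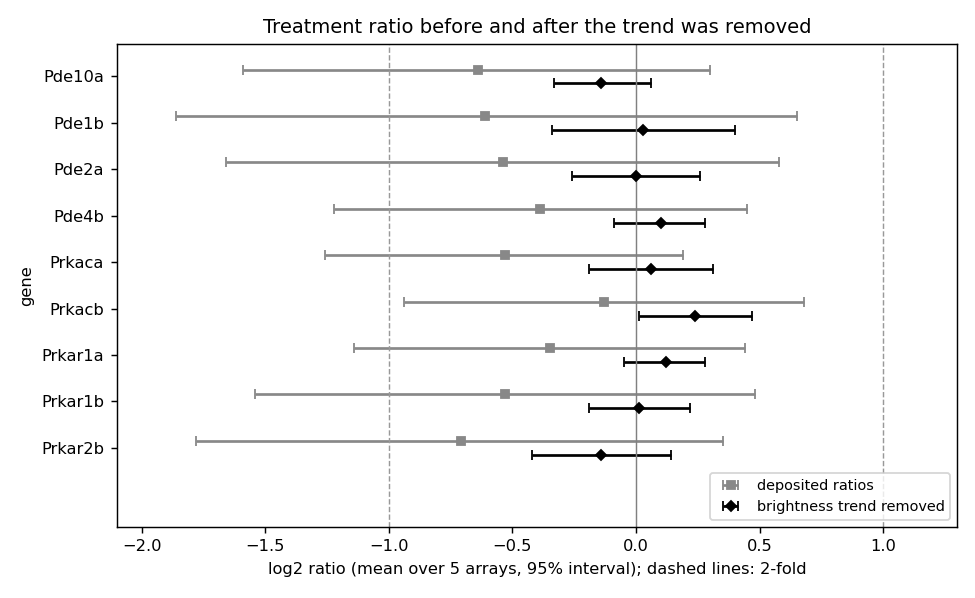
Mean log2 ratio fitted over 5 arrays with its 95% interval (horizontal axis) for the 9 genes with a spot above background (vertical axis). The mean lies midway between those of the dye orientations. Grey marks deposited and black trend-removed ratios. Dashed lines mark 2-fold either way. The deposited intervals reach as low as -1.86, and the trend-removed ones lie between -0.42 and 0.47.

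The direction of the dye-swapped arrays bore on several members. Trend-removed ratios of arrays with opposite dye orientation correlated at r from -0.71 to -0.01 over 3919 spots (6 pairs of arrays), and those with the same orientation at r from -0.08 to 0.52 (4 pairs); spots share arrays and are not independent. The cocaine-in-Cy5 values were all above the cocaine-in-Cy3 values in 1 of 9 member spots (Pde10a) and all below in 2 of 9 (Prkacb and Prkar1b), against 21.7% and 22.4% of the 3919. A dye effect of the spot and a treatment effect on arrays that had not been turned cannot be told apart here. Under the other reading, 6 of 19 member spots passed as deposited (limma, adjusted p under 0.05), all on the denominator side and 0 of them among the 9 above background, against 78.4% of 43790 features. Trend-removed, 3 of 9 had an unadjusted p under 0.05 under that reading (Pde10a, Pde1b and Prkar1b), against 21.5% of 3919 spots, and 0 of 9 an adjusted one.

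The rest of the pathway gave no call in the likely reading either. In lists of 75 further genes, 73 were measured by 156 spots, of which 0 passed in either direction (limma, adjusted p under 0.05), and 57 of the 73 genes lay on the denominator side, with a median of -0.06 over the 73 (78.1%, beside 68.8% of all genes). With the other reading, 67 of the 73 did (91.8%, beside 96.0% of all genes), and 117 of the 156 spots passed, beside the 78.4% of all features given above. In the likely reading, an unadjusted p under 0.05 (limma) was reached by 2 of the 156 spots, against 2.28% of all 43790 features. They were spots of Akap6 (p 0.0188) and Pde4a (p 0.0495). Spots above background existed for 22 genes, and 0 of their 26 spots passed after the trend was removed, with a median of -0.02 over those 22 genes. At an unadjusted p under 0.05 (limma) there were 3 of the 26, of Arpp21, Pde1a and Ppp1r1b, against 6.84% of 3919 spots. The Pde1a spots above background differed in sign, at -0.26 ± 0.09 (feature 42881) and 0.11 ± 0.09 (feature 22040). Of the 9 other adenylyl cyclases 0 were above background, among them Adcy7 (-0.07 ± 0.06) and Adcy6 (-0.15 ± 0.13). Among 14 other phosphodiesterases Pde1a and Pde8b were above background, and the smallest p values were those of dim spots of Pde4a (-0.10 ± 0.04) and Pde3b (0.10 ± 0.04), each with an adjusted p of 0.731. The kinase inhibitor Pkig stood at -0.70 ± 0.34, and trend-removed at -0.07 ± 0.07, and a dim spot of the inhibitor Pkib at 0.06 ± 0.04.

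Anchoring proteins, which tether protein kinase A to its places in the cell, had 5 of 13 genes above background. Dim spots of Akap6 (-0.22 ± 0.06) and Akap2 (0.08 ± 0.03) had the smallest p values of that list. Trend-removed, the spots of these genes above background stood at -0.315 ± 0.138 (Akap6, limma's adjusted p 0.667) and 0.11 ± 0.09 (Akap2, 0.726). Rapgef3, an exchange factor that cyclic AMP switches on directly, stood at -0.55 ± 0.34, and trend-removed at -0.10 ± 0.10, and Bves, a membrane protein that binds cyclic AMP, at -0.04 ± 0.08. Crem, a relative of CREB, stood at -0.29 ± 0.13 in a dim spot, and the CREB coactivator Crebbp at -0.50 ± 0.26, trend-removed -0.14 ± 0.08. Of the kinase substrates of projection neurons, Ppp1r1b stood at -0.06 ± 0.33 as deposited and at 0.35 ± 0.12 without the trend (adjusted p 0.667), or at -0.24 ± 0.12 under the other reading. Arpp21 had 2 spots above background. One at a brightness of 7.51, on the border, stood at -0.68 ± 0.29 as deposited and -0.34 ± 0.10 trend-removed (adjusted p 0.667), while the brighter one, at 11.96, had a trend-removed ratio of -0.13 ± 0.24 (adjusted p 0.887). These trend-removed ratios were 0.21 ± 0.10 and 0.15 ± 0.24 under the other reading. Of 19 measured CREB-responsive genes 8 were above background, with a trend-removed median of 0.02, and the smallest deposited p values were those of dim spots of Ppargc1a (-0.22 ± 0.11) and Pcsk1 (0.09 ± 0.05).

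The mean trend-removed profile of the 9 genes was -0.16, 0.03 and 0.07 on cocaine-in-Cy5 replicates 1, 2 and 3 and 0.17 and -0.01 on cocaine-in-Cy3 replicates 1 and 2. Closest to it among 3406 other genes, by root mean square difference over the 5 arrays, were Mapk14 (0.034), Grb2 (0.037), Crat (0.045), Aplp2 (0.045) and Zfp148 (0.048), where the median gene was at 0.267. The 9 genes did not share this profile: values of Pde1b ran from -0.82 to 0.77 and those of Prkar1a from 0.10 to 0.13. Nearness to a mean of such unlike profiles is not nearness to each member, and it describes 5 arrays alone.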

How the data were processed

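Accumbens RNA, amplified and labelled with Cy5 or Cy3, was hybridised to Agilent whole mouse genome arrays, per the labels' protocols and the design text, and images were read with Agilent Feature Extraction, per the submitters' processing notes. How background was handled and whether signals were normalized is not stated in the labels. What the authors deposited is a log2 ratio between the 2 channels for each feature. On the 3 cocaine-in-Cy5 arrays, at least 99.93% of them were exact fractions of scanner counts or of their midpoints, so those arrays had not been centred.

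Of 44290 features, 500 at 0 on all arrays were left out, and 43790 were fitted with limma 3.58.1 in R 4.3.3 (mean ratio and a term for dye orientation, leaving 3 residual degrees of freedom, with Benjamini-Hochberg adjustment over all features). The mean ratio of that fit weighs the dye orientations alike, and intervals are its 95% intervals. Of 32042 features with 1 gene symbol, 31906 matched the RefSeq gene table. Brightness was recovered from the fractions with Python 3.11.15: the factor by which numerator and denominator had been cancelled was weighed over the 3 arrays (chance of a midpoint 0.4, spread 0.2 on the log2 scale, lowest signals 47 and 60 counts). It can be off by a factor of 2 for a spot. The trend was removed with loess (span 0.3) over gene spots above 7.5. In simulated data with independent noise, changes of 0.5, 1, 2 or -1 on the log2 scale were planted in 200 spots. The trend-removed fit found 68%, 100%, 100% and 94% of them, with 11 false calls. These rates hold for 200 changes present together and for independent noise. Whether they hold with fewer changes, or with the correlations between the real arrays, was not tested. Smaller changes, such as the 0.24 of Prkacb, were not planted, so the power to find them was not tested. The deposited fit found at most 2% of any size, so an absence of calls among deposited ratios says little.

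Members, pathway lists, markers and the rule for named genes (all member spots, the 2 genes of each list with the smallest deposited p, the 5 nearest profiles) were chosen with earlier results of these data known. The number of arrays limits the precision. Alternatives are in the closing section.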

Additional observations from a re-analysis of the deposited data

Results flagged for a closer look

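For 3 of the 28 sets of 5 array values examined, 1 array lay far from the other 4 (a gap over 0.71 of the whole range, Dixon's 95% value for 5). Chance gives about 1 in 20 such sets if sets are independent and the 5 values of each come from 1 population. Here the sets share arrays, the 9 trend-removed sets repeat spots of the deposited ones, and the arrays differ in dye orientation. That rate thus does not apply to them. Each of the 3 is a deposited ratio on cocaine-in-Cy5 replicate 1: Prkacb at -1.62 (feature 3549), Prkar1b at -2.15 (feature 34575) and the dimmer Pde10a spot at -1.27 (feature 43344). The median of all gene spots above background on that array was -1.57. None of the 9 sets of trend-removed values was picked out.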

How the results depend on the processing

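The count of features past the threshold remained 0 under 10 of 12 alternatives for deposited ratios and all 15 for trend-removed ones. The exceptions were the other reading of the sign, with 34346 features and 6 member spots, and the cocaine-in-Cy5 arrays alone, with 33630 features and 4 member spots; both keep the dye offset of dim spots in the tested value by construction. The members' median moved by less than its SD over arrays (0.62 deposited, 0.12 trend-removed) under each of them. With cocaine-in-Cy5 replicates 1 and 2, whose cocaine RNAs have like names, averaged into 1 array, that median was -0.26 deposited and 0.02 trend-removed. None of the values whose sign turned had passed in the likely reading, but no feature at all passed there, so this says nothing about their stability.

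Under the other reading, deposited ratios became 0.30 (Pde10a feature 40826), 0.07 (Prkaca), 0.12 (Prkar2b), and -0.54 and -0.47 (Pde4b features 3693 and 15190, which passed there with limma's adjusted p of 0.000214 and 0.00605). Trend-removed ratios became 0.34 (Pde10a), -0.41 (Pde1b), -0.13 (Pde2a), -0.19 (Prkacb), -0.0008 (Prkar1a), -0.23 (Prkar1b) and 0.11 (Prkar2b). Those 2 Pde4b spots also turned without a dye term (-0.05 and -0.08), after quantile normalization (-0.04 and -0.10) and on the cocaine-in-Cy5 arrays alone (-0.48 and -0.45). With array weights feature 15190 stood at -0.004 and Prkacb (feature 3549) at 0.11, and with median-centred arrays Pde4b feature 30339 stood at 0.01. Trend-removed, Pde2a stood at -0.002 with the threshold at 7, -0.003 with a loess span of 0.5 and -0.05 without a brightness filter, where Prkar1b stood at -0.04. Without a dye term Pde1b, Pde2a and Prkar1b stood at -0.05, -0.03 and -0.03. The cause was not tested.

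With 1 array left out, deposited ratios that changed sign ranged from -0.15 to 0.03 (Pde2a feature 24006), -0.06 to 0.10 (Pde4b feature 15190), -0.08 to 0.07 (Pde4b feature 30339), -0.29 to 0.15 (Prkacb feature 3549) and -0.16 to 0.04 (Prkacb feature 34102). Trend-removed ones ranged from -0.14 to 0.19 (Pde1b), -0.06 to 0.09 (Pde2a), -0.03 to 0.13 (Prkaca) and -0.05 to 0.06 (Prkar1b). The other settings of the brightness recovery were chosen after seeing the data. No paired analysis was possible because each value already sets the treatments against each other within an array. For dim spots and those little above background, undisclosed background handling limits the ratios.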
